A study of Arabidopsis thaliana with 90 samples.

Results

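The 8 genes described here encode the enzymes and partners that keep DNA methylation in place in Arabidopsis thaliana: MET1 (AT5G49160), VIM1 (AT1G57820), VIM3 (AT5G39550), DDM1 (AT5G66750), CMT3 (AT1G69770), SUVH4 (AT5G13960), CMT2 (AT4G19020) and DRM2 (AT5G14620). They were taken by name and identifier for their function, out of 27444 nuclear protein-coding genes, and their peaks were read from the gene plus 500 bp to each side. The study measured protein binding and histone marks by chromatin immunoprecipitation sequencing (ChIP-seq) in whole seedlings, to ask how DREAM, a multi-protein repressor that holds cell cycle genes off, acts at its targets. All libraries used here came from Col-0 plants, 9 days old and grown under constant white light, with 3 biological replicates for each of 10 features. These were the DREAM-complex protein BTE1 and the transcription factor E2FA, each precipitated with a rabbit antibody raised for that protein; the COMPASS subunit WDR5A carrying an HA tag; total RNA polymerase II (Pol II); its forms phosphorylated at Ser5 and at Ser2; mono-, di- and trimethylated histone H3 lysine 4 (H3K4me1, H3K4me2, H3K4me3); and H2A.Z, a variant histone. TBP, which binds the TATA box, came as 1 list of regions without replicates. The labels give the genotype of the WDR5A-HA libraries as Col-0, and the sources used here do not give the promoter that drives the tagged protein. Mutant, input and IgG libraries were not analysed here, so the values stand without a mutant or a control precipitation beside them. Whole seedlings mix dividing and non-dividing cells, so a gene bound in few cells and a gene bound weakly in many cannot be told apart.

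As background, MET1 copies methylation at CG sites onto the new DNA strand after replication, and VIM proteins recognise the half-methylated sites and bring MET1 to them. DDM1 is a chromatin remodeller that opens heterochromatin to the methyltransferases. CMT3 methylates CHG sites in a loop with SUVH4 (KRYPTONITE), a histone H3K9 methyltransferase, while CMT2 and DRM2 methylate CHH sites, DRM2 under the guidance of small RNAs. E2F factors bind promoters of genes used in S phase, when DNA and its methylation are copied, and COMPASS lays down H3K4 methylation.

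BTE1 had peaks at 5 of the 8 genes in all 3 libraries, against 5.33% of all nuclear protein-coding genes. The 5 were MET1, DDM1, VIM1, CMT3 and SUVH4, and the same 5 carried E2FA in all 3 libraries, against a background of 8.95%. Across the genome, 4.11% of genes had both proteins by this rule. VIM3, CMT2 and DRM2 had no BTE1 peak in any library. VIM3 also lacked E2FA in every library. CMT2 had an E2FA peak in replicates 1 and 3 only, with folds of 2.82 and 2.31, and DRM2 in replicates 2 and 3 only, with folds of 1.89 and 1.51. The weak E2FA peaks lay at different places in each library: counted into the gene from 1 end, with negative numbers outside it, the summits were at -321 and 67 bp at CMT2 and at 1135 and -261 bp at DRM2. E2FA peaks were deposited at a p-value of up to 0.01, a more lenient limit than the q-value of 0.05 seen for the other features.

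The strength of BTE1 binding was compared by the fold enrichment at the peak, which is the authors' own value from the peak caller, a ratio of signal over its local background in that library. MET1, the CG methyltransferase, had BTE1 folds of 14.4, 22.2 and 14.7 in replicates 1 to 3 (17.1 ± 4.40, SD, n = 3). CMT3, the CHG methyltransferase, had 13.0, 11.1 and 11.3 (11.8 ± 1.03, SD, n = 3). These were the most strongly bound of the 5, and replicate 2 was the high library for MET1 but not for CMT3. DDM1, the remodeller, had 5.84, 8.12 and 5.22 (6.39 ± 1.52, SD, n = 3). The histone methyltransferase gene SUVH4 had 5.23, 5.10 and 4.66 (5.0 ± 0.300, SD, n = 3), and VIM1 had 3.09, 3.15 and 3.86 (3.36 ± 0.426, SD, n = 3). The order was MET1, CMT3, DDM1, SUVH4 and VIM1. Neighbours in that order did not overlap between libraries, except DDM1 and SUVH4, where the lowest DDM1 value of 5.22 lay below the highest SUVH4 value of 5.23. Over all 10 pairs of genes, 9 did not overlap, each with an exact permutation p of 0.1 (two-sided, 3 against 3 libraries), the smallest that this design can give, and 0.111 after Benjamini-Hochberg adjustment over the 10 pairs. Both genes of a pair are read in the same libraries, and a paired exact permutation p was 0.25 for each of the 9. The share of such pairs among all BTE1 genes was not computed, so the count is no trait of this set. DDM1 against SUVH4 had an exact permutation p of 0.2, with DDM1 higher within 3 of 3 libraries. Replicate 2 carried much of the gap between MET1 and CMT3, whose mean difference in fold was 5.32 and became 2.45 without it, and of that between DDM1 and SUVH4, which was 1.39 and became 0.583.

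E2FA followed another order, in which DDM1 had the highest mean fold. DDM1 had E2FA folds of 16.0, 11.8 and 12.2 (13.3 ± 2.33, SD, n = 3), and MET1 had 7.82, 10.6 and 11.2 (9.86 ± 1.80, SD, n = 3). CMT3 had 8.74, 7.09 and 8.96 (8.26 ± 1.02, SD, n = 3). All 3 DDM1 values lay above all MET1 and CMT3 values, whereas MET1 and CMT3 overlapped (exact permutation p 0.3, MET1 higher within 2 of 3 libraries). SUVH4 had 5.70, 3.47 and 5.94 (5.04 ± 1.36, SD, n = 3), and VIM1 was again lowest with 3.04, 2.38 and 3.46 (2.96 ± 0.543, SD, n = 3). The other 9 of 10 pairs did not overlap and again stood at the smallest exact permutation p of 0.1 (adjusted 0.111). Their paired exact permutation p was 0.25, and the share of such pairs among all E2FA genes was not computed. The lead of DDM1 over MET1 rested on replicate 1: the mean difference in fold was 3.46 and became 1.10 without it, and as percentile ranks within each library the values of DDM1 and MET1 overlapped (exact permutation p 0.2), which left 8 pairs apart. Folds of BTE1 and E2FA rest on different antibodies and peak limits, so only the orders are set side by side.

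**Figure D1:**
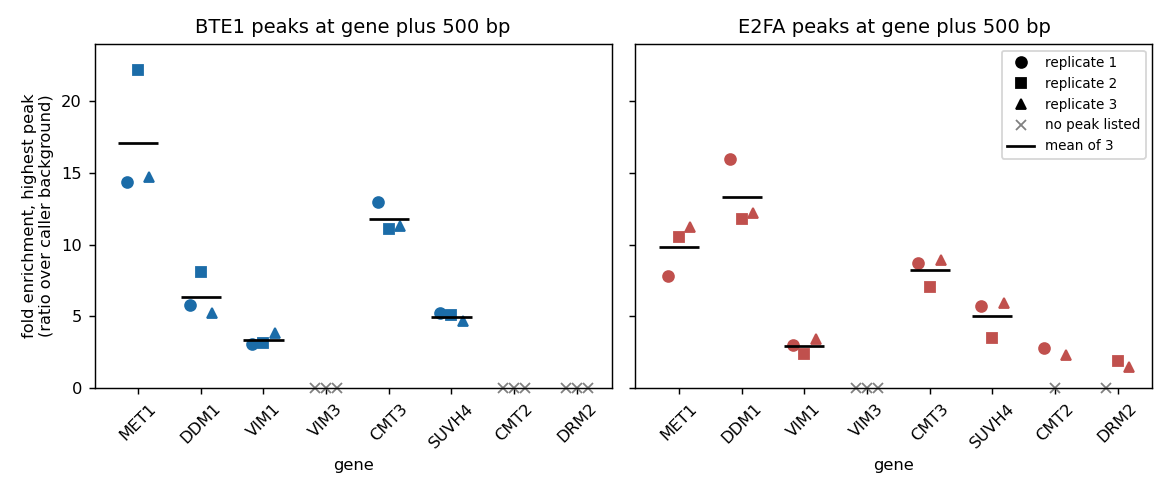
Fold enrichment of the highest peak at each of the 8 genes plus 500 bp, for BTE1 (left) and E2FA (right); each symbol is 1 library, the line is the mean of 3, and crosses at 0 mark libraries with no listed peak. MET1 leads for BTE1 with 14.4 to 22.2, DDM1 leads for E2FA with 11.8 to 16.0, and VIM3 has crosses in all libraries.

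Set against every gene with BTE1 in all 3 libraries, 1462 in number with a median mean fold of 4.88, MET1 ranked 33 and CMT3 ranked 108. DDM1 ranked 463, SUVH4 ranked 697, near the middle, and VIM1 ranked 1253, with 14.3% of BTE1 genes below it. Among the 2456 genes with E2FA in all 3 libraries (median mean fold 3.57), DDM1 ranked 110, MET1 226, CMT3 327, SUVH4 737 and VIM1 1561. The 5 genes thus spanned most of the range, with 97.7% of BTE1 genes lower than MET1.

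The summits of the 2 proteins were then placed within each gene. The gene table used gives no strand, so a gene was oriented by its own chromatin: the end nearer its highest H3K4me2 summit within the gene, in all 3 libraries, is called the marked end. H3K4me2, H3K4me3 and H2A.Z are known to lie just inside the start of transcribed plant genes, though H3K4me2 also spreads further in. This oriented 7 of the 8 genes; VIM3 had no mark to use. For genes oriented by both marks, H2A.Z gave the same end as H3K4me2 for 96.8%, and it gave the same end for 6 of the 7 genes. CMT2 had no end by H2A.Z, whose highest summits lay outside the gene.

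BTE1 was called at the marked end of all 5 genes and at the other end of none, against 7.1% and 1.64% of the 10296 oriented genes of at least 2000 bp. The 5 were taken for having BTE1, so only which end carried it can be read from this count. Genome-wide, 731 oriented genes had BTE1 at the marked end and 169 at the other end, so the marked end was the usual place. E2FA was called at the same 5 marked ends and at none of the other ends, against 76.7% and 4.65% of the 731 genes with BTE1 at the marked end. At MET1 the BTE1 peak covered chromosome 5 from 19931752 to 19932883 (TAIR10, union of 3 libraries), with summits 18, -4 and 29 bp into the gene. The MET1 E2FA peak covered 19931788 to 19932624, with summits at -11, -8 and -11 bp. The 3 BTE1 summits of MET1 all lay further into the gene than the 3 E2FA summits, by a mean of 24.3 bp (exact permutation p 0.1, two-sided, the smallest possible; 0.5 after adjustment over 5 genes). At DDM1 the BTE1 peak covered chromosome 5 from 26648382 to 26649232, with summits at -40, -4 and -44 bp, and E2FA covered 26647977 to 26649241, with summits at -24, -27 and -27 bp. At CMT3 BTE1 covered chromosome 1 from 26252999 to 26253900, with summits at 114, 21 and 120 bp, and E2FA covered 26253199 to 26253954, with summits at 92, 25 and 20 bp. DDM1 and CMT3 summits overlapped between the proteins (exact permutation p 1 and 0.3).

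SUVH4 had BTE1 on chromosome 5 from 4501136 to 4501577, with summits at 29, -43 and -1 bp, and E2FA from 4501092 to 4501600, with summits at 18, 8 and -22 bp. VIM1 had the summits furthest into the gene, though its nearest BTE1 summit was close to those of CMT3 at 114 and 120 bp. Its BTE1 peak, on chromosome 1 from 21417639 to 21418210, had summits 126, 264 and 214 bp into the gene. Its E2FA peak, from 21417606 to 21418234, had summits at 190, 238 and 199 bp. The summits of the proteins overlapped at SUVH4 and at VIM1 (exact permutation p 0.9 and 1), and with 3 libraries each and an SD of 69.9 bp for BTE1 at VIM1 this does not show that the positions are the same. Over all pairs of a BTE1 and an E2FA library, the summits of a gene were 1 to 112 bp apart. The median over the 5 genes of the absolute mean distance was 7.67 bp, and it was 16.5 to 24.5 bp when each replicate was left out. At 2 genes the peak also reached the window of a neighbour on the other side of the marked end: AT5G66740, 166 bp from DDM1, and AT5G13950, 627 bp from SUVH4. Peaks do not say which gene of such a pair is the target. The peaks at MET1, CMT3 and VIM1 reached no other gene's window in all 3 libraries.

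H3K4me2 and H2A.Z summits followed inside the gene at all 5 bound genes. Mean H3K4me2 summits lay 226 bp into MET1, 228 bp into DDM1, 333 bp into VIM1, 331 bp into CMT3 and 390 bp into SUVH4. These positions were 212, 258, 132, 246 and 395 bp further in than the mean BTE1 summit of the same gene. Mean H2A.Z summits were 243 bp into MET1, 239 bp into DDM1, 338 bp into VIM1, 279 bp into CMT3 and 309 bp into SUVH4. The mean BTE1 and E2FA summits therefore lay on the outer side of the mean H3K4me2 and H2A.Z summits at each gene, and closest to them at VIM1. The peaks themselves overlapped. At MET1, VIM1 and CMT3 every BTE1 summit lay inside the H2A.Z peak of the same replicate number, so BTE1 was not outside the marked stretch there. At DDM1 every BTE1 summit lay outside the H2A.Z peaks, and at SUVH4 those of replicates 2 and 3 did.

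**Figure D2:**
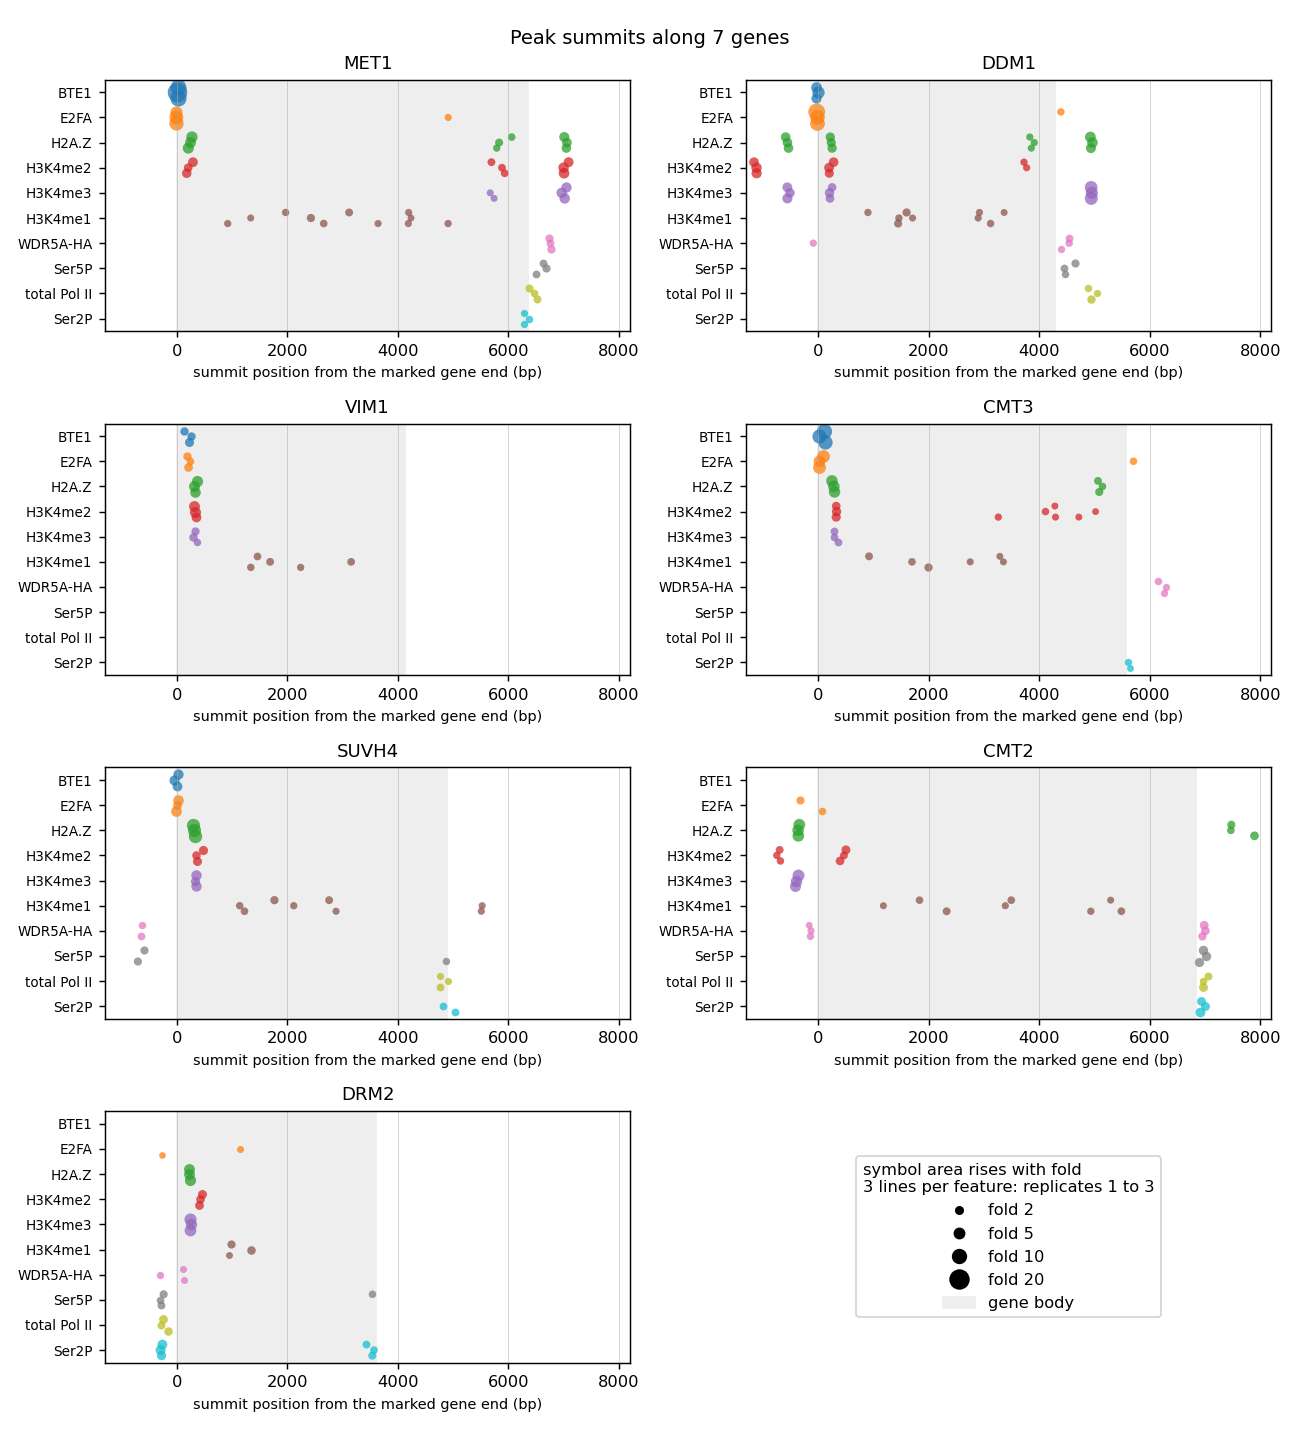
Position of every peak summit along the 7 genes with peaks, in bp from the marked gene end, for 10 features with replicates 1 to 3 as separate lines; symbol area rises with fold and the grey area is the gene body. The highest BTE1 and E2FA summit of each library stands within 120 bp of 0 in MET1, DDM1, CMT3 and SUVH4 and 126 to 264 bp into VIM1, single-library E2FA peaks of lower fold stand at 4910 bp in MET1 and near the far end of DDM1 and CMT3, H3K4me2 and H2A.Z follow inside, H3K4me1 fills the body, and Pol II and WDR5A-HA symbols lie mostly beyond a gene end.

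H3K4me3 differed among these genes. By the window of gene plus 500 bp it was called at 7 of 8 genes, against 64.1% of all genes, but the window takes in neighbours, so the fold was read again from summits in the first 1000 bp of the gene. MET1 had no H3K4me3 peak at its marked end in any library, like 7.72% of all oriented genes and 11.6% of those with BTE1 at that end. The H3K4me3 peak called for MET1 had folds of 5.30, 5.57 and 5.58. It lay beyond the other end, 6964 to 7050 bp from the marked one, where AT5G49170 lies 70 bp past MET1. DDM1 had H3K4me3 folds of 3.31, 4.35 and 3.55 at its own start (3.74 ± 0.546, SD, n = 3). VIM1 had 3.05, 3.24 and 2.19 (2.83 ± 0.560, SD, n = 3), and CMT3 had 2.59, 2.45 and 2.58 (2.54 ± 0.0781, SD, n = 3). Of oriented genes with such a peak, 7.25%, 2.74% and 1.17% had a lower mean fold than DDM1, VIM1 and CMT3, respectively. SUVH4 had 5.54, 3.95 and 5.35 (4.95 ± 0.869, SD, n = 3), at the 15.6 percentile. DRM2, which carried no BTE1, had 7.78, 6.58 and 7.34 (7.23 ± 0.606, SD, n = 3), at the 52.6 percentile, and none of its values overlapped those of the 4 bound genes. Oriented genes with such a peak had a median mean H3K4me3 fold of 7.13. Those also with BTE1 at the marked end had 5.70 with quartiles of 4.06 and 7.04. DDM1, VIM1 and CMT3 thus lay under the lower quartile of BTE1 genes too, and SUVH4 within the quartiles.

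H3K4me2 was not low at these genes, and H2A.Z was low at DDM1 alone among the 5 bound genes. Both marks were called at 7 of 8 genes by the window of gene plus 500 bp, against 63.7% and 80.2% of all genes. H3K4me2 folds at the marked end were 6.09, 6.34 and 4.58 at VIM1 (5.67 ± 0.951, SD, n = 3). Of oriented genes with such a peak, 98.5% were lower. The other 4 bound genes had means from 3.68 at SUVH4 to 4.35 at DDM1. MET1, with no H3K4me3 there, had H3K4me2 folds of 4.69, 3.38 and 4.35. All 5 bound genes stood above the median of 2.97 for oriented genes with a peak and of 3.52 for those also with BTE1. H2A.Z was highest at SUVH4, with 9.63, 9.43 and 9.78 (9.62 ± 0.177, SD, n = 3), above 99.9% of oriented genes with a peak. CMT3 had a mean H2A.Z fold of 7.00, MET1 of 6.44 and VIM1 of 6.15, and DDM1 was the lowest with 4.08. That was under the median of 4.52 for oriented genes with a peak and under the lower quartile of 4.23 for those also with BTE1. The end was chosen by where H3K4me2 peaked in the gene, so finding a H3K4me2 peak there is not a result, and the choice did not use its fold.

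**Figure D3:**
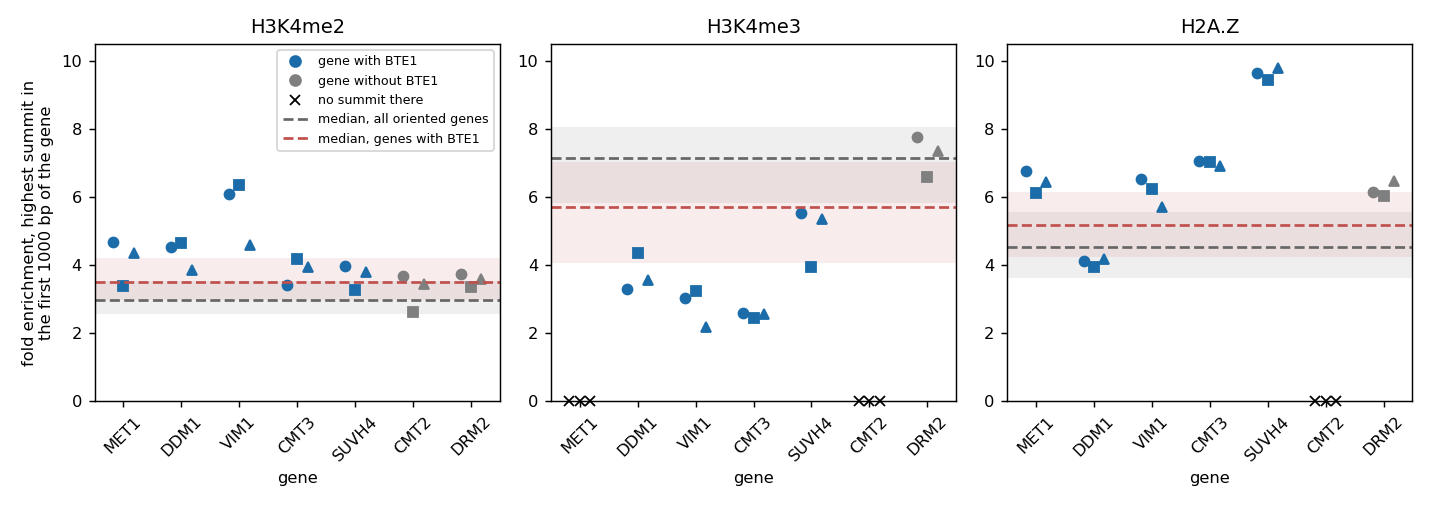
Fold of the highest summit in the first 1000 bp from the marked end, for H3K4me2, H3K4me3 and H2A.Z in replicates 1 (circle), 2 (square) and 3 (triangle); blue genes carry BTE1, grey genes do not, and crosses mark libraries with no summit there. Dashed lines are medians of oriented genes with a summit there in all libraries (grey, H3K4me3 7.13) and of those with BTE1 (red, 5.70), with shaded quartiles. DDM1, VIM1 and CMT3 sit at 2.19 to 4.35 for H3K4me3 while their H3K4me2 folds reach 3.41 to 6.34.

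CMT2 and DRM2 are the CHH methyltransferase genes without BTE1. CMT2, but not DRM2, had no H2A.Z summit in the first 1000 bp from the marked end in any library, unlike the bound genes. CMT2 had no H3K4me3 summit there either, like MET1 but unlike the other bound genes. Its H3K4me3 summits lay outside the gene, at -361, -394 and -415 bp, with folds of 7.53, 6.89 and 6.19. The highest H2A.Z summits of CMT2 lay at -338, -361 and -356 bp. Over the gene plus 500 bp, the highest H3K4me3 summits of MET1 and DDM1 and the highest H2A.Z summits of DDM1 also lay outside the gene. The neighbour AT4G19010 lies 104 bp from that end, and these peaks span the gap, so they cannot be given to CMT2 alone. The H3K4me2 summits of CMT2 lay 399 to 505 bp inside the gene. DRM2 had H3K4me3 231 to 260 bp inside the gene, against 208 to 367 bp at the bound genes with that peak at the marked end. Its H2A.Z summits lay 213 to 234 bp inside, against 208 to 365 bp at the bound genes, with a mean fold of 6.22. H3K4me1 lay in the gene body of all 7 genes with marks, its highest summits 923 to 3496 bp from the marked end with folds of 1.72 to 3.27, and it was called at 7 of 8 genes against 38.3% of all genes.

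Pol II was called at 5 of 8 genes in total form, against 46.7% of all genes, at 4 of 8 for Ser5P against 45.9%, and at 3 of 8 for Ser2P against 47.6%. These shares are near the background, and the Ser2P count rested on replicate 1, since 5 genes were called without it. WDR5A-HA was called at 5 of 8 genes, against 51.8%, and TBP at 5 of 8, against 57.7%. Total Pol II had summits in the gene body in all 3 libraries at 0 of 8 genes, against 18.9% of all genes, and so did Ser5P, against 17.5%, and WDR5A-HA, against 25.8%. Ser2P did so at DRM2 alone, against 17.3%. For 8 genes, such low counts are near the Pol II shares. Most of the Pol II summits called for these genes lay past a gene end. Pol II peaks near the other end are common. Of all oriented genes, as defined above, 54.9% had a total Pol II peak within 500 bp to either side of that end. Ser5P was there at 54.8% and Ser2P at 60.7%, against 27.5%, 26.9% and 17.8% at the marked end for the 3 forms in turn. Among oriented genes with BTE1 at the marked end, the other end had the 3 forms at 35.7%, 34.5% and 39.3%. These shares count peaks inside and outside the gene, so how often summits lie past an end was not computed.

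At the marked end of the 5 bound genes, total Pol II, Ser5P, Ser2P and WDR5A-HA were called in all 3 libraries at 0 of 5. Among the 731 oriented genes with BTE1 there, total Pol II was called at 20.7%, Ser5P at 22%, Ser2P at 14.8% and WDR5A-HA at 46.9%, and 60.3% had no Pol II peak of any form in any library. With 5 genes, 0 calls are close to the Pol II background, and the WDR5A-HA count was not tested against its own. Leaving out replicate 2 gave 1 of 5 for Ser5P and for WDR5A-HA, each time SUVH4, where a peak at the edge of the window was present in replicates 1 and 3. TBP covered the marked end of SUVH4 alone among the 5, against 39.9% of BTE1 genes, and of none with a window of 250 bp.

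The Pol II at MET1 was read past its other end. Total Pol II folds there were 2.76, 2.47 and 2.79, Ser5P folds were 2.60, 2.93 and 2.65 and WDR5A-HA folds were 2.99, 2.65 and 3.04, with all summits 6377 to 6771 bp from the marked end of a gene of 6357 bp. AT5G49170 lies 70 bp away, so these values may belong to it. Ser2P had folds of 2.08, 2.26 and 2.14 at the same end, with summits inside MET1 in 2 of 3 libraries. DDM1 had total Pol II folds of 2.22, 2.06 and 3.19 with summits 4893 to 5055 bp from the marked end of a gene of 4295 bp, and no Ser2P peak in any library. SUVH4 had total Pol II folds of 2.02, 1.93 and 2.57 at its other end, where it overlaps AT5G13970 by 59 bp. CMT3 had no total Pol II or Ser5P peak in any library, only Ser2P in replicates 2 and 3 with folds of 2.13 and 1.74. VIM1 had no peak of any Pol II form, WDR5A-HA or TBP.

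The highest Ser2P peaks of DRM2 and CMT2 had folds of 3.61 to 4.89, against 1.74 to 2.59 at the bound genes with a Ser2P peak. Their summits lay outside the genes, so these folds may belong to neighbours. A weaker Ser2P peak had its summit inside DRM2, near its other end, with folds of 2.63, 2.45 and 2.89 in replicates 1 to 3. DRM2 had total Pol II folds of 3.61, 2.73 and 3.28 and highest Ser2P folds of 4.78, 4.89 and 3.99. The summits lay from -293 to -166 bp, outside the marked end, where SK13 (AT5G14640) lies 290 bp away. WDR5A-HA lay at the same end, with folds of 1.85, 2.10 and 1.85. CMT2 had Ser5P folds of 4.29, 4.25 and 4.02 and Ser2P folds of 3.63, 3.61 and 4.66. These lay beyond its other end, where NLM1 (AT4G19030) lies 256 bp away. Both genes had WDR5A-HA and TBP at the marked end, against 55.5% and 44.1% of oriented genes, so for 2 genes the counts add little beyond the background.

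**Figure D4:**
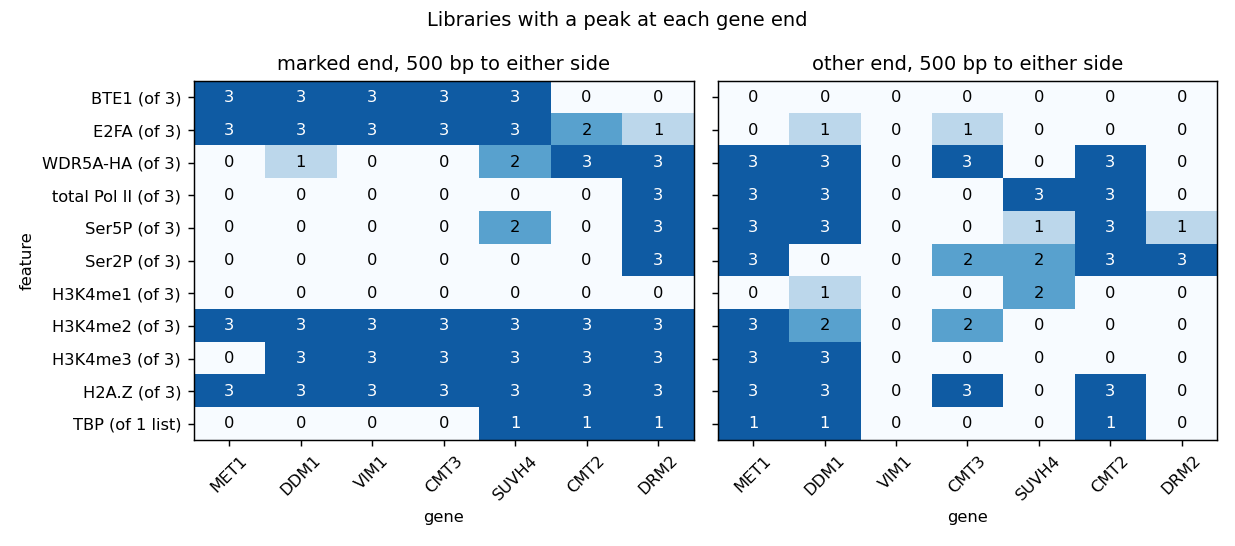
Number of libraries with a peak within 500 bp of the marked end (left) and of the other end (right) of 7 genes, for 10 features with 3 libraries each and the single TBP list. BTE1 and E2FA fill the marked end of MET1, DDM1, VIM1, CMT3 and SUVH4 with 3 of 3, and total Pol II and Ser2P have 0 there. Pol II counts of 3 stand at the other end of MET1, DDM1, SUVH4 and CMT2. DRM2 has them at the marked end, and for Ser2P at the other end too.

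VIM3, a close relative of VIM1, stood apart: it had no peak of any feature in any of the 30 libraries or the TBP list, as did 8.81% of all genes. The nearest peaks were H2A.Z at 1263 to 1334 bp and H3K4me2 at 1722 to 1930 bp from the gene, and the nearest BTE1 peak lay 3067 to 3088 bp away. VIM2 and the MET1 copies MET2B and MEE57 also had no peak. These genes belong to families with close copies, and how reads shared between copies were placed is not stated in the sources read here, so the absence of peaks at them is uncertain.

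Of the other DNA methylation genes, 38 in all, BTE1 was called at 4 and E2FA at 9, against 5.33% and 8.95% of all genes, which for 38 genes puts the BTE1 count near the background. BTE1 and E2FA were both called at CMT1, a chromomethylase copy (BTE1 fold 4.89 ± 1.10, E2FA fold 6.52 ± 1.20, SD, n = 3). They were also called at 3 of 5 genes for removing methylation or keeping it out of genes. ROS1, a DNA glycosylase that removes methylated cytosine, had a BTE1 fold of 4.26 ± 0.560 and an E2FA fold of 8.69 ± 3.28 (SD, n = 3). DML2, another such glycosylase, had 4.69 ± 0.929 and 3.35 ± 0.957. IBM1, a histone demethylase that keeps H3K9 methylation and CHG methylation out of genes, had 5.06 ± 0.827 and 5.67 ± 1.83. All 4 had mean BTE1 folds below those of MET1, CMT3 and DDM1 but above that of VIM1. The mean of SUVH4 lay among them, just below IBM1 and above CMT1, DML2 and ROS1. The folds of these 4 genes thus fell within the range of the 5 bound genes.

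In the pathway that guides DRM2 by small RNAs, BTE1 was called at 0 of 21 genes and E2FA at 5 of 21, against the same shares of 5.33% and 8.95%. For 21 genes a BTE1 count of 0 is near the background and is no contrast with the 8 genes. The E2FA folds were 2.45 ± 0.420 at AGO6, an Argonaute protein, 3.50 ± 1.03 at CLSY2 and 3.02 ± 0.904 at CLSY3, remodellers that bring in Pol IV, 3.70 ± 0.789 at the ATPase gene MORC6, and 2.51 ± 0.351 at HEN1, the small RNA methyltransferase (SD, n = 3). For comparison, BTE1 was called at 3 of 5 replication-coupled chromatin assembly genes with folds of 6.13 to 15.0, and at 6 of 6 MCM helicase genes with folds of 8.74 to 24.4, again against 5.33% of all genes. MET1 and CMT3 lay within the range of the MCM genes, and DDM1, SUVH4 and VIM1 below it.

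For each bound gene, the most similar other genes were sought over the mean fold of all 10 features. The measure was a Euclidean distance of log2(fold + 1) in units of each feature's SD over all genes. Each fold was the highest in the gene plus 500 bp. At MET1, DDM1, CMT3, SUVH4, CMT2 and DRM2 several of these peaks had summits outside the gene. The distances therefore compare windows that take in neighbours, not the genes alone. MET1 was closest to the photolyase gene PHR1 (AT1G12370), at 1.15, and to the mismatch repair gene MSH6 (AT4G02070), at 1.24, against a median distance of 8.33 to all genes. DDM1 was closest to FAS2 (AT5G64630), a chromatin assembly factor subunit, at 1.10, and to GA3 (AT5G25900), a gibberellin synthesis enzyme, at 1.43. SUVH4 was closest to the meiosis gene MEI1 (AT1G77320), at 0.657, and to AT1G49980 at 1.08. CMT3 was closest to UBP21 (AT5G46740), a ubiquitin protease, at 1.00, and to AT3G20490 at 1.09. VIM1 was closest to AT2G22600, at 0.542, and AT3G20150, at 0.772. Among the 8 genes themselves, CMT2 and DRM2 were the most alike, at 0.920, and MET1 and VIM3 the least, at 9.99.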

How the data were processed

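Per the submitters' processing notes, fastp, Bowtie2 2.3.3, MACS2 2.2.5 and deepTools were used with TAIR10; the sources used here do not name the control for peak calling. The deposited list of each library gives start, end and summit of each peak with a score, a fold enrichment (ratio), −log10 p and −log10 q, all made by the authors. The lists deposited for the whole series hold positions only, and only the file's name ties 1 of them to TBP. In the deposited BTE1 lists the peaks are named UCP1, so their link to BTE1 rests on the labels and file names. The lists hold no read totals, so depth was unknown and no limit depending on it was computed. Peaks per library ranged from 1395 to 1978 for BTE1, 3592 to 5852 for E2FA, 10431 to 17878 for the Pol II forms and WDR5A-HA, and 14403 to 27063 for histone features.

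Gene bounds came from a RefSeq table of TAIR10.1, which has no strand and whose coordinates are not printed; 99.0% to 99.1% of H3K4me3 summits lay in annotated genes, against 70.1% to 72.8% after moving the genes by 1000 or 2000 bp. The call rule asked for an overlap of 1 bp or more between a gene's window and a peak of each of the 3 libraries. Genes of at least 2000 bp were oriented for the comparison of ends, a step added after the data had been seen. Members and lists were chosen with earlier results of these data known, so no test over a list was made. Named were all 8 genes, other DNA methylation genes with BTE1 or E2FA in all 3 libraries (at most 10), genes sharing a peak and the 2 most similar genes per bound gene. Folds and summits were compared by two-sided exact permutation over libraries.

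BTE1 and E2FA libraries of the same replicate number deviated together over 1128 genes with both (correlations of deviations 0.522, 0.428 and 0.526, and -0.208 to -0.320 between different numbers), and 2 genes read in 1 library share it in any case. Alternatives changed the window, libraries, lists, overlap, score limit, peak read, block and replicates. Gene calls were tested on simulated BTE1 peaks over 27444 genes, where 200 of 200 seeded genes and 43 others were called. Python 3.11.15, numpy 2.4.6, pandas 2.3.3 and matplotlib 3.10.9 were used.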

Additional observations from a re-analysis of the deposited data

How the results depend on the processing

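Over the alternatives run, BTE1 was called at 4 to 5 of 8 genes, with 4 when peaks had to score above their library's median, and E2FA at 5 to 7. Counts of genes called moved as follows. With peaks above the median score of their library, the count was 2 for WDR5A-HA, 0 for total Pol II, 1 for Ser5P, 1 for H3K4me1 and 3 for H3K4me3. In the gene body only, total Pol II was called at 2, Ser5P at 1 and TBP at 2. With the summit in the gene body, an alternative added after seeing the data, total Pol II was at 0, Ser5P at 0 and Ser2P at 1. Ser2P was at 5 with a peak in at least 2 libraries and in the whole-series list, and at 3 to 5 when each replicate was left out. H3K4me1 was at 0 near gene ends. At the marked end of the 5 bound genes, alternatives added after seeing the data gave WDR5A-HA 1, total Pol II 1 and Ser5P 1 with 1000 bp, WDR5A-HA 1 and Ser5P 1 with at least 2 libraries, both 0 to 1 when each replicate was left out, and TBP 0 with 250 bp. A count can move but has no direction to reverse. The 20 differences in fold between genes could have reversed, and none did. The causes of the moves were not tested.

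With the replicate block, the 20 comparisons of fold had paired exact permutation p of 0.25 to 0.5 (0.1 to 0.3 without it) and the 5 of summit position 0.25 to 1. With 3 pairs this p cannot go below 0.25, and the block does not enter the gene calls. Unknown depth limits what an absent peak shows, and peaks of neighbours within 500 bp limit which gene a Pol II, TBP or WDR5A-HA call belongs to.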
